A study of Homo sapiens with 4 samples.

Results

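The 10 genes described here encode transcription factors grouped under T-lineage identity: BCL11B, BCL11A, TCF7, LEF1, IKZF1, IKZF3, ETS1, TOX, SATB1 and ZEB1. Within this group, BCL11A is known for its part in B-lymphoid development. The 10 genes were picked by name, with earlier results of these data known. Their IGF2BP2 peaks were found through the Ensembl gene identifier of each gene. The peak lists came from Jurkat cells, a human T-cell leukemia line for which the labels name no treatment or genetic change, and in which RNA bound to the protein IGF2BP2 was pulled down with an antibody and sequenced (iRIP-seq, a crosslinking immunoprecipitation). There were 2 IGF2BP2 libraries, named replicate 1 and replicate 2, and 2 input libraries, which were not analysed here. The labels do not say whether the replicates came from separate cultures. A peak is a stretch of RNA in which reads piled up, its height is given in tags (reads, averaged over the steps of 50 nt that make up the peak), and a sense peak lies on the strand of its gene in CDS, UTR, noncoding exon or intron. Peaks whose largest single share was CDS, 5′ UTR, 3′ UTR or noncoding exon are called exon peaks and those whose largest share was intron, intron peaks. The 10 genes held 362 of 74237 sense peaks in replicate 1 and 447 of 77288 in replicate 2, a mean of 404 ± 60.1 (SD, n = 2), out of 20428 genes with a sense peak in either list.

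IGF2BP2 is an RNA-binding protein that holds mRNAs through its KH domains and is known as a reader of the m6A mark, through which it can lengthen the life of a transcript. The genes listed here act on the DNA side of gene control. In the thymus, TCF7 and BCL11B are switched on in turn downstream of Notch as progenitors commit to the T lineage. Others of the group set chromatin, restrain rival fates or tune later stages. A peak on a transcript reports RNA recovered with IGF2BP2, and since no input value was used, the number of peaks on a gene is not relative to how much of its RNA the cells held.

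Of the 10 genes, 9 had a sense peak in both replicates under their own identifier, against 59.5% of all genes with a peak. SATB1, a chromatin organizer, was the gene without one, and its locus is described at the end. In 8 genes at least 1 peak overlapped one from the other library on the same strand, by at least 1 nt, against 16.4% of all genes, and IKZF3 was the gene with peaks but no overlap. A peak of at least 10 tags was present in both replicates in 7 genes, against 3.96% of all genes. The 3 genes without such a peak were IKZF3, ZEB1 and SATB1. These shares are descriptive, since the genes were chosen with earlier results of these data known. The 10 genes also had a median of 31 sense peaks in replicate 1 and 43.5 in replicate 2, against 2 and 1 over all genes. The part of peak number in these shares was not tested.

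The genes differed widely in the number of peaks. TCF7 had the most, with 72 sense peaks in replicate 1 and 99 in replicate 2, followed by BCL11B with 65 and 86 and by TOX with 62 and 67. IKZF1 held 49 and 65, LEF1 35 and 51, BCL11A 27 and 36, ZEB1 24 and 21, and ETS1 22 and 19. IKZF3 stood at the low end with 6 and 3. The order was the same in both replicates. Neighbours in that order had ranges over the replicates that overlapped, with 2 exceptions: BCL11A lay above ZEB1, and IKZF3 lay below ETS1, in both replicates. Over all 20428 genes the median was 2 peaks in replicate 1 and 1 in replicate 2.

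**Figure D1:**
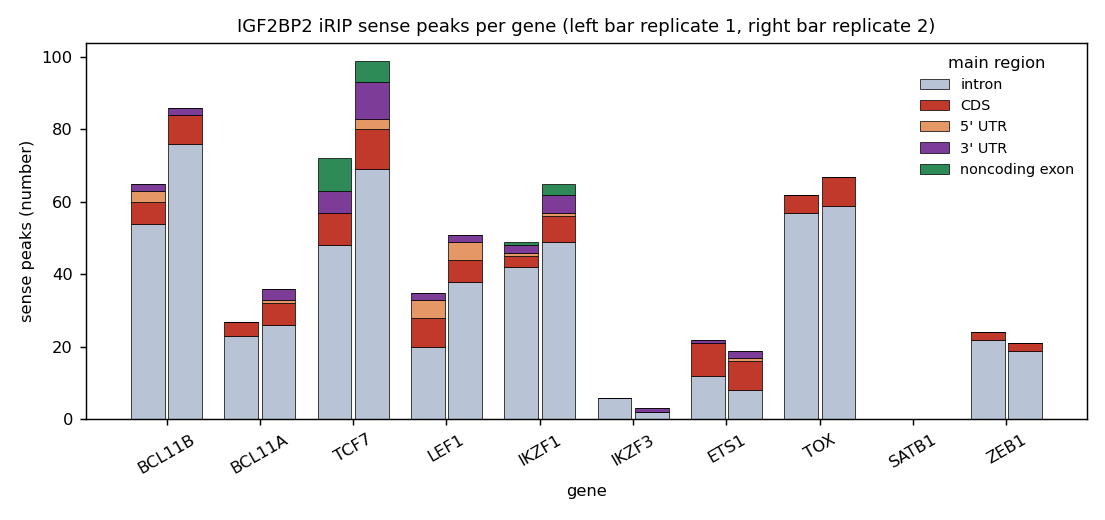
The vertical axis gives the number of sense peaks on each gene, the left bar of each pair is replicate 1 and the right bar replicate 2, and colors give the region that holds the largest share of each peak. Introns make up most of every tall bar, TCF7 reaches 72 and 99 peaks, and SATB1 has none under its own identifier.

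Gene length bears on these counts, so protein-coding genes were split into 10 groups of equal size by length and each gene was set beside its own group. Of 20428 identifiers with a sense peak, 11918 were named, against 20056 protein-coding genes. Genes without a named identifier, SATB1 among them, counted as 0 peaks, which can raise the percents and lower the medians given here. BCL11B, 103 kb long, had more peaks than 99.9% of its group in replicate 1 and 99.7% in replicate 2, where the median was 3. TCF7, only 40 kb long, had more peaks than 100% of its group in both, and IKZF1 exceeded 99.3% and 99.5%. TOX, the longest of the 10 at 314 kb, exceeded 99% and 98.9% of genes of like length. ZEB1 exceeded 93.1% and 91.2%, and IKZF3 73.4% and 49.8%. Per 10 kb of gene, TCF7 carried 18.0 and 24.8 peaks, BCL11B 6.32 and 8.36, IKZF1 4.82 and 6.39, and TOX 1.98 and 2.14, against a median of 0.603 and 0.663 over named genes with a peak. IKZF3, at 0.563 and 0.281, lay under that median in both replicates.

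Most of these peaks lay in introns. Introns held 78.5% of them in replicate 1 (73.9% to 82.4%, a 95% Wilson interval, as are all ranges given after shares below) and 77.4% in replicate 2 (73.3% to 81.0%), against 69.2% and 62.4% over all sense peaks. CDS held 46 and 56 of the peaks, the 3′ UTR 13 and 25, the 5′ UTR 9 and 11, and noncoding exons 10 and 9. Intron peaks were lower: their median height was 4 tags in replicate 1 and 5.5 in replicate 2, against 5.88 and 7 for exon peaks. The lowest height in the lists was 4 tags in replicate 1 and 5 in replicate 2, so the median intron peak of replicate 1 was at the lowest height listed. Introns held a smaller share of the peaks that reached 10 tags, 4 of 20 in replicate 1 (20%) and, for replicate 2, 17 of 43 (39.5%), against 25.4% and 26.5% over all such sense peaks.

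A larger share of exon peaks than of intron peaks was found in both replicates. In replicate 1, 44 of 78 exon peaks (56.4%, 45.4% to 66.9%) were overlapped by a peak of replicate 2, against 38.1% of all exon peaks, and in replicate 2, 44 of 101 (43.6%, 34.3% to 53.3%) against 30.3%. For intron peaks the shares were 48 of 284 (16.9%, 13.0% to 21.7%) against 7.11% and 49 of 346 (14.2%, 10.9% to 18.2%) against 7.12%. TCF7, whose peaks covered 12.1% and 17.3% of the gene, supplied 19 of the overlapped intron peaks in each replicate, and without it the intron shares were 12.3% (8.69% to 17.1%) and 10.8% (7.69% to 15%). TCF7 was set aside after these values were seen. Peak height went with recurrence in both classes. In replicate 1, 13 of the 16 exon peaks that reached 10 tags were overlapped (81.2%, against 74.2% of all such exon peaks) and 38.5% of those under 6 tags (against 27.2%). For replicate 2 these were 21 of 26 (80.8%, against 65.8%) and 21.4% (against 12.6%). Of intron peaks that reached 10 tags, 2 of 4 and 5 of 17 (29.4%) were overlapped, against 71.6% and 53.1% of all such intron peaks. Intron peaks of 6 to under 10 tags were overlapped in 22% and 22.3% of cases (against 33% and 11.7%), and those under 6 tags in 15.5% and 6.08% (against 4.43% and 2.52%). The part of height and coverage in the difference between exons and introns was not tested.

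**Figure D2:**
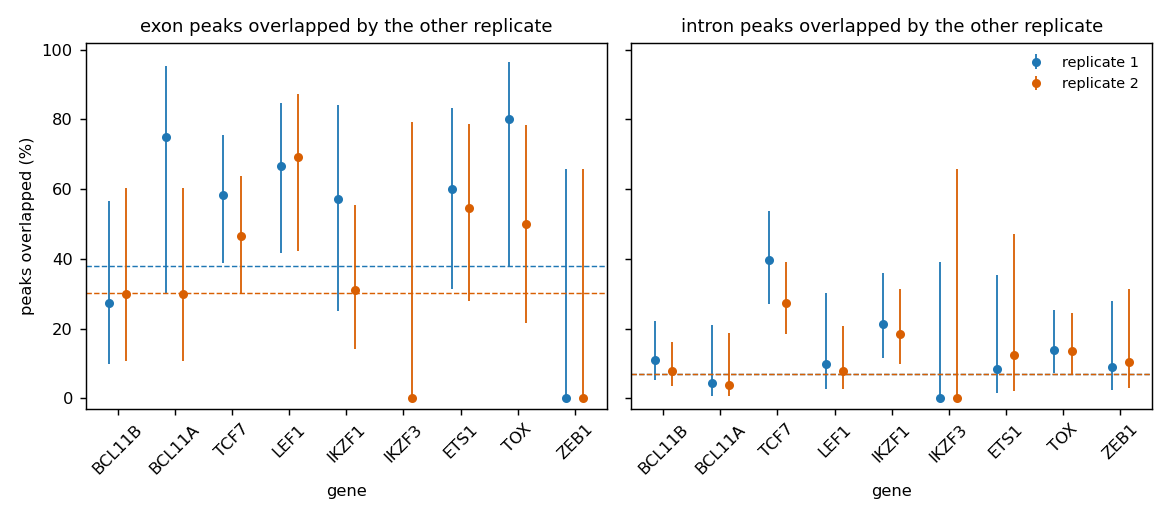
Points give the percent of exon peaks (left) and intron peaks (right) of each gene that the other replicate overlapped, bars are 95% Wilson intervals, and dashed lines are the same percent over all sense peaks of that replicate. Intron points lie lower in 7 of the 9 genes in both replicates, the exceptions being ZEB1 and IKZF3, TCF7 has the highest intron shares at 39.6% and 27.5%, and the exon points of BCL11B, 27.3% and 30%, lie below or beside the dashed lines.

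BCL11B (chr14:99169287-99272197, GRCh38, minus strand) encodes a zinc-finger factor needed for T-lineage commitment. Its exon peaks fell in 4 stretches of the gene while its intron peaks ran along nearly its whole length. Exon peaks numbered 11 in replicate 1 and 10 in replicate 2, and intron peaks 54 and 76. The share of exon peaks was 5.3 percentage points higher in replicate 1 (p = 0.477 in Fisher's exact test, two-sided).

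The first BCL11B stretch, chr14:99271151-99272050 at the 5′ end of the gene, held 3 peaks of 5′ UTR in replicate 1 (6, 5 and 8 tags from the gene start inward) and 1 CDS peak of 12.5 tags in replicate 2. The 8-tag peak and the 12.5-tag peak lay end to end, the latter ending at position 99271250, without sharing a base, and the 8-tag peak was mirrored by a peak on the opposite strand. The second stretch, chr14:99257451-99257700, held the highest BCL11B peak of both replicates. That peak had 14 tags in replicate 1 and 13.5 in replicate 2, with 0.6 and 0.8 of its length in CDS and the rest in intron, and replicate 2 had another CDS peak of 10 tags close by. The third stretch, chr14:99231451-99231550, was a CDS peak of 6.5 tags in replicate 1 and 13 in replicate 2. Both of these stretches were thus found in each replicate by overlapping peaks.

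The fourth stretch, chr14:99172751-99176200 at the 3′ end, held 6 exon peaks in each replicate but a single overlap, in the 3′ UTR, of 4.5 tags in replicate 1 and 10 in replicate 2 (chr14:99173951-99174050 in replicate 1). The CDS peaks there had 4 to 6 tags in replicate 1 and 5 to 7 in replicate 2, and none of them overlapped between the replicates. Of the 4 in replicate 1, 2 lay end to end with a peak of replicate 2, among them the 5-tag peak at chr14:99175551-99175600, which had one on either side, of 7 and 6 tags. With touching peaks counted as overlapping, 6 of the 11 exon peaks of replicate 1 met a peak of replicate 2 in place of 3.

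The 6 BCL11B intron peaks found in both replicates were 11.1% of 54 and 7.89% of 76, against 7.11% and 7.12% of all intron peaks. The highest was at chr14:99231701-99231750, beside the third exon stretch, with 10 tags in replicate 1 and 7 in replicate 2. The next, at chr14:99259001-99259050, had 5 and 6 tags, and the other 4 had 4 tags each in replicate 1 and 5.5 to 7 in replicate 2. In 4 parts of equal length from the start of the gene, the intron peaks numbered 17, 14, 17 and 6 in replicate 1 and 17, 26, 23 and 10 in replicate 2, so the last part, which also holds the large 3′ exon stretch, had the fewest.

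The difference in overlap between BCL11B exon and intron peaks did not pass the test. In replicate 1, 27.3% of exon peaks and 11.1% of intron peaks were overlapped, a difference of 16.2 percentage points (adjusted p = 0.171 over 2 tests, Fisher's exact test, two-sided). In replicate 2 the shares were 30% and 7.89%, a difference of 22.1 points (adjusted p = 0.132, same exact test). These tests compare peaks of 1 gene in 2 libraries. They count the same overlapping pairs, 3 exon and 6 intron, from either side, so they are not separate evidence. Neighbouring peaks of the gene are also treated as independent, which was not tested and holds for touching peaks too. With touching peaks counted the differences were 34.2 points (adjusted p = 0.0284, exact test) and 65.5 points (adjusted p = 9.79e-05, exact test). Among 11917 other named genes, those with counts of intron and exon peaks most like BCL11B, by the sum of absolute differences in log2(count + 1) over both replicates, were GRK3 (53 and 70 intron peaks, 10 and 12 exon peaks, a sum of 0.51), GNAQ (60 and 86, 9 and 9, a sum of 0.73) and TRAPPC9 (55 and 44, 9 and 10, a sum of 1.06).

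**Figure D3:**
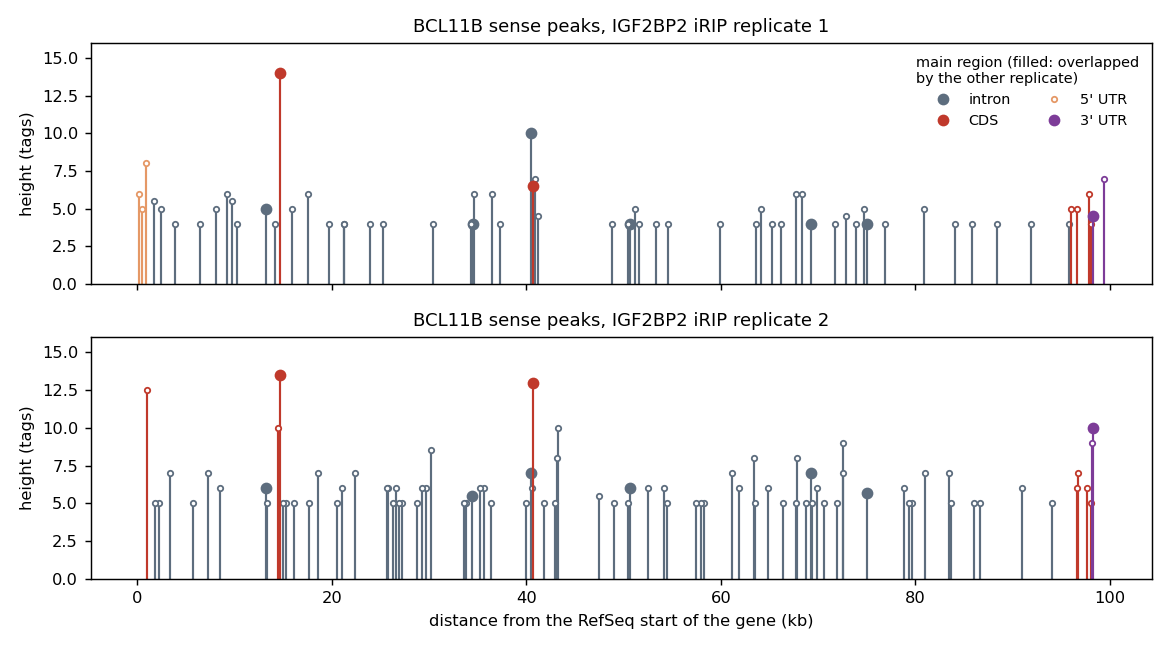
The horizontal axis is the distance from the RefSeq start of BCL11B in kb, the vertical axis the height of each sense peak in tags, and filled markers are peaks overlapped by the other replicate. The filled CDS markers stand at 14 and 13.5 tags near 14.7 kb and at 6.5 and 13 tags near 40.7 kb, and white intron markers fill most of the gene.

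BCL11A (chr2:60450520-60553924, minus strand), the paralog of BCL11B and a zinc-finger repressor known for silencing fetal globin and for its part in B-lymphoid development, had fewer peaks than BCL11B in a gene of the same rounded length, 103 kb. Its highest peak in both replicates was nevertheless shared and mainly in CDS. That peak, at chr2:60553201-60553250 near the 5′ end, had 12 tags in replicate 1 and 24 in replicate 2. Another shared CDS peak, at chr2:60545951-60546000, had 10 in each. In replicate 2 an intron peak at chr2:60498701-60498750 also had 10 tags and was not overlapped. In replicate 1, 3 of 4 exon peaks and 1 of 23 intron peaks (4.35%) were overlapped, and in replicate 2 it was 3 of 10 and 1 of 26 (3.85%). Over all exon peaks the shares were 38.1% and 30.3%, and over all intron peaks 7.11% and 7.12%.

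TCF7 (chr5:134108218-134148210, plus strand) encodes an HMG-box factor that acts downstream of Notch and Wnt signals in early thymocytes. It had the densest peaks of the 10 genes, and 33 in each replicate were overlapped by the other, 14 exon and 19 intron peaks. Of its peaks, 9 in replicate 1 and 17 in replicate 2 reached 10 tags. The highest shared peak, at chr5:134115301-134115400 in replicate 1, had 21.5 tags in replicate 1 and 18 in replicate 2 and ran from CDS over the end of the exon. The other 4 shared peaks of at least 10 tags in both replicates lay mainly in CDS: 17.5 and 20.5 tags at chr5:134115901, 14.3 and 21.5 at chr5:134138051, 11 and 30 at chr5:134142701, and 10.5 and 27 at chr5:134143551. The first of these was near equal in the replicates and the last 3 were higher in replicate 2.

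LEF1 (chr4:108047548-108168932, minus strand), the HMG-box partner of TCF7 in the thymus, had 10 of its 15 exon peaks in replicate 1 and 9 of 13 in replicate 2 overlapped. Of its intron peaks, 2 of 20 (10%) and 3 of 38 (7.89%) were overlapped, near the 7.11% and 7.12% of all intron peaks. The exon shares of LEF1 were 66.7% and 69.2%, against 38.1% and 30.3% of all exon peaks. Its highest shared peak, in CDS at chr4:108083351-108083450, had 17 and 15.5 tags. A CDS and intron boundary peak at chr4:108081551-108081650 had 8.5 tags in replicate 1 and 23 in replicate 2. The 5′ UTR held 2 further shared peaks, of 14 and 9.5 tags at chr4:108168751 and of 7 and 14 at chr4:108167851. A shared peak of 6 and 7.5 tags lay on the start of its coding sequence.

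IKZF1 (chr7:50303455-50405101, plus strand) encodes Ikaros, a zinc-finger factor of lymphoid development whose loss is known in leukemia. Most of its shared peaks were classed as intron: 4 of 7 exon and 9 of 42 intron peaks were overlapped in replicate 1, and 5 of 16 and 9 of 49 in replicate 2. Some of these intron peaks also held exon bases, with exon shares of 0.06, 0.12, 0.22 and 0.44 in replicate 1. The highest shared peak, at chr7:50319001-50319050 in replicate 1, had 10 tags in each replicate and ran from intron into the exon that holds the start codon. The highest peak of replicate 2, 14 tags in an intron at chr7:50330351-50330400, had no peak of replicate 1 on it. Of 4 parts of equal length, the second from the start of the gene held the most intron peaks, with 22 of 42 in replicate 1 and 23 of 49 in replicate 2.

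Sequence under peaks of these genes is shown because it places the peaks on the edge of exons and on start codons, as the shares of each peak in intron, UTR and CDS also do. All runs are RefSeq sequence of GRCh38.p14, written 5′ to 3′ on the strand of the gene, from promoter windows of RefSeq that meet the peaks, so parts of a peak outside a window are not shown. Capitals mark the GT that follows an exon, the AG that precedes one, or the ATG of the start codon.
TCF7, chr5:134115363-134115450, plus strand, the 3′ part of the highest shared peak: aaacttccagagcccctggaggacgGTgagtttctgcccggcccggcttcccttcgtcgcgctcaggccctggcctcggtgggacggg
IKZF1, chr7:50319001-50319097, plus strand, most of the highest shared peak: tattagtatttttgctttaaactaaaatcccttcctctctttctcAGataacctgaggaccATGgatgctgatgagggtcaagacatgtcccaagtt
LEF1, chr4:108167751-108167790, minus strand, the upstream start codon under a shared peak: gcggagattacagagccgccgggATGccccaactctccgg
LEF1, chr4:108166252-108166300, minus strand, a downstream start codon under a peak of 5 tags of replicate 1: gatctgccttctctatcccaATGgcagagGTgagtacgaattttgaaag

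In TCF7 the shares put the first intron base at chr5:134115388, where the GT stands. In IKZF1 they put the first exon base at chr7:50319048, next to the AG, and the first coding base at chr7:50319062, at the ATG. This ATG lay under the replicate 2 peak only, since the replicate 1 peak ended at chr7:50319050. In LEF1 the first coding bases at chr4:108167767 and chr4:108166280 are both the A of an ATG. The peaks over the exon edges therefore included intron bases as well as exon bases. Peaks that spanned exon and intron numbered 37 on the 10 genes in replicate 1 (10.2%) and 32 in replicate 2 (7.16%), against 17.1% and 23% of all sense peaks.

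IKZF3 (chr17:39757715-39864312, minus strand) encodes Aiolos, the Ikaros relative of later lymphocytes. It had 6 intron peaks of 4 or 5 tags in replicate 1, and 2 intron peaks and 1 of 3′ UTR, all of 5 tags, in replicate 2. None met a peak of the other replicate (0 of 6, interval 0 to 39.0%, and 0 of 3, 0 to 56.1%), so the gene had no peak position found in both replicates. Over all intron peaks 7.11% and 7.12% were overlapped, so an absence among so few peaks does not set IKZF3 apart.

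ETS1 (chr11:128458765-128587558, minus strand), a winged helix-turn-helix factor of T-cell survival and differentiation, was the gene in which exon peaks made up the largest part: 10 of 22 in replicate 1 and 11 of 19 in replicate 2. All but 1 of its 7 shared peaks were in CDS. They were led by chr11:128484951 with 8 tags in replicate 1 and 9.5 in replicate 2, chr11:128490451 with 10 and 7.33, and chr11:128486051 with 7 and 12. The single shared intron peak, at chr11:128480151, had 4 and 5 tags and 0.2 of its length in an exon.

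ZEB1 (chr10:31318417-31529804, plus strand), a zinc-finger and homeodomain repressor, had 24 and 21 peaks, 22 and 19 of them in introns and none over 6 tags in replicate 1 or 7 in replicate 2. The 2 shared peaks were both intronic, of 5 and 7 tags at chr10:31319401 and of 4 and 6 tags at chr10:31342301. Its 2 exon peaks in each replicate did not meet.

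TOX, an HMG-box factor of thymic selection and of exhausted T cells, had a strong peak in CDS near its start and intron peaks that gathered toward that start. The CDS peak had 18 tags in replicate 1 and 10 in replicate 2 and lay 0.222 kb from the start of the gene. Of its intron peaks, 37 of 57 in replicate 1 and 38 of 59 in replicate 2 lay in the first of 4 parts of equal length. The last part held 8 and 2. Overlap was found for 4 of 5 and 4 of 8 exon peaks and for 8 of 57 and 8 of 59 intron peaks.

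SATB1 (chr3:18345377-18445592, minus strand), which folds chromatin around T-cell genes, had no sense peak under its own identifier and 1 antisense peak in replicate 1. On its strand and inside its RefSeq interval the lists nevertheless held 16 peaks of sense class in replicate 1 and 20 in replicate 2, all under the identifier of TBC1D5, a gene whose RefSeq interval ends 603 kb away. Of these, 15 and 19 were classed as intron and 1 in each replicate as noncoding exon, all in relation to the identifier they were listed under. The SATB1 locus had 1.6 and 2 such peaks per 10 kb, and 11 of 16 (68.8%, 44.4% to 85.8%) and 11 of 20 (55%, 34.2% to 74.2%) were overlapped by the other replicate.

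The rest of the TBC1D5 identifier had fewer peaks per 10 kb. The RefSeq interval of TBC1D5 held 24 peaks in each replicate, 0.41 per 10 kb in both. None of these was overlapped (0 of 24 and 0 of 24). Over all intron peaks 7.11% and 7.12% were overlapped, and over all sense peaks 16.6% and 15.8%, so 0 of 24 is not read as a difference. The gap between the genes held 21 and 12 peaks, 0.348 and 0.199 per 10 kb, whose overlap is not given here. In SATB1 the highest peak of replicate 1 was one of 10 tags at chr3:18394451-18394500, and that of replicate 2 was one of 21 tags at chr3:18378151-18378200, which had 7 tags in replicate 1. Which transcript gave these peaks was not tested. Counting peaks by position in place of identifier gave the members a peak in 10 of 10 genes.

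**Figure D4:**
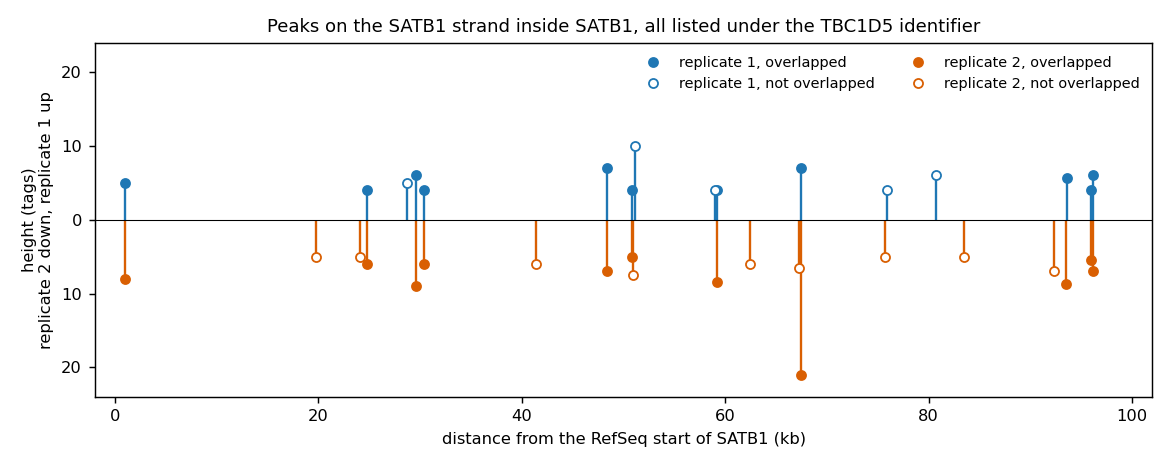
The horizontal axis is the distance from the RefSeq start of SATB1 in kb, replicate 1 is drawn upward and replicate 2 downward, and stem length is height in tags. Filled markers are the peaks overlapped by the other replicate, 11 in each, and the highest stem is the replicate 2 peak of 21 tags, which has a partner of 7 tags in replicate 1.

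The shared peaks of the 8 genes that had any were higher in replicate 2 in most cases. Of 92 pairs, 73 were higher in replicate 2, 14 in replicate 1 and 5 equal, and 71 began at the same position. Heights were not adjusted for depth, which is unknown, and the lowest height listed differs between the lists, and the part of depth in this pattern was not tested. In 11 pairs both heights were at least 10 tags: 5 in TCF7, 2 in BCL11A and 1 each in BCL11B, IKZF1, LEF1 and TOX. Of the 11, 10 had an exon class in both replicates. The exception was the IKZF1 peak at the edge of the exon that holds the start codon.

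**Figure D5:**
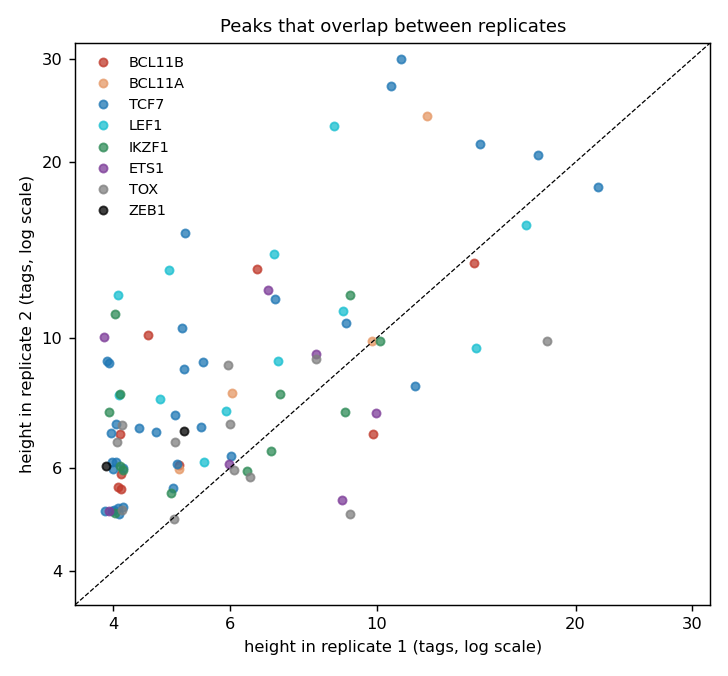
Each of the 92 points is a pair of overlapping peaks on 1 of the genes, with its height in replicate 1 on the horizontal and in replicate 2 on the vertical axis, both in tags on a log scale and with a small random shift so that equal points can be seen. The dashed line marks equal heights, and 73 of the points lie above it.

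Of 12 paralogs (TCF7L1, TCF7L2, IKZF2, IKZF4, IKZF5, ETS2, FLI1, ERG, TOX2, TOX3, TOX4 and ZEB2) of the 10 genes, 9 had a sense peak in both replicates and 3 a shared one, where the shares over all genes were 59.5% and 16.4%. Those 3 were IKZF2 with 18 and 23 peaks, 3 of them shared in each replicate, ETS2 with 8 and 11, of which 6 were shared, and FLI1 with 30 and 34, of which 4 were shared. Among 12 other factors of T-cell development, 10 had a peak in both replicates and 8 a shared one. TCF3, the E protein E2A, had 39 and 51 peaks, 22 of them shared in each replicate, and its highest had 26 and 42 tags. MYB had 24 and 23 peaks with 11 and 10 shared. TCF12 had 50 and 55 with 5 shared in each replicate, and GATA3 9 and 10 with 3 shared in each. BACH2 had 30 and 31, and FOXP1 23 and 22, each with 1 shared in each replicate. ID2 and ID3, short genes that restrain E proteins, had 3 and 4, and 4 and 3, peaks, with 3 and 3, and 3 and 2, shared.

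Peaks on marker genes of blood cell types were counted beside the same shares over all genes, 59.5% with a peak in both replicates and 16.4% with a shared one. Of 8 T-cell markers, 6 had a peak in both replicates and 5 (CD3D, CD3E, CD7, LCK and ZAP70) a shared one. Of 6 B-cell markers 2 had a peak in both, PAX5 and EBF1, of 5 myeloid markers 1, and of 4 erythroid markers 0, and none of the 15 had a shared peak. A peak does not measure expression, and 6 of 8 is near the share over all genes.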

How the data were processed

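IGF2BP2 iRIP-seq peak lists of 2 Jurkat libraries were used, and the 2 input libraries were not analysed here. Per the labels and the study's methods, the authors sequenced 150 bp read pairs. bcl2fastq, TopHat2 and the build GRCh38 are named in the submitters' processing notes, and the annotation is not given in the sources used here. They called peaks library by library, against 500 random placements of the reads of a gene (p-value threshold 0.05), and dropped those that met input peaks. Heights were deposited as a signal in tags without adjustment for depth, and 98.6% of heights in replicate 1 and 97.2% in replicate 2 were whole numbers (tolerance 0.01). The deposited p-value of each peak served only as a filter. Read totals are unknown.

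Each peak took the class with the largest single share of its length (ties, 1 in replicate 1 and 2 in replicate 2 on the 10 genes, went to the exon class), and 1 peak in each replicate was classed intron although its exon classes together held more. Members were matched by Ensembl identifier without its version and checked by position against RefSeq genes of GRCh38.p14. All their listed peaks fell inside those intervals except 1 of BCL11A and 1 of TCF7 in replicate 2. Other identifiers were named by position, where 1 gene held at least 80% of the exon peaks with a margin of 1000 nt. Peaks overlapped when they shared at least 1 nt on the same strand, with neighbouring bins of 50 nt not counted as overlapping. The listed starts are 0-based, since all 28523 and 37916 partial region shares of single-bin peaks were whole multiples of 1 base in 50. Positions are given 1-based, and splice sites and start codons in RefSeq sequence fall where the shares put them. Wilson intervals are 95% intervals and cover counting error only. BCL11B shares were tested by Fisher's exact test, two-sided, with Benjamini-Hochberg adjustment over the 2 replicates.

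The members and gene lists were chosen with earlier results of these data known. From the list of paralogs, 1 gene is not reported here. The peaks named were, for each gene, the highest shared peak by the lower of its 2 heights and the highest of each replicate, and for BCL11B all exon peaks and the shared intron peaks. Other shared peaks were chosen after their values were seen. Alternatives were heights of at least 5 or 10 tags, a p-value under 0.001, any exon share, an overlap of 50% of the length, strand ignored, touching peaks, genes by position and each replicate left out. The overlap and naming steps were tested on simulated data. Python 3.11.15, numpy 2.4.6, pandas 2.3.3, scipy 1.17.1 and matplotlib 3.10.9 were used.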

Additional observations from a re-analysis of the deposited data

Results flagged for a closer look

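The lists also held peaks at these genes that are not among the sense peaks of the 10 identifiers. On the strand of SATB1 and inside its interval, 16 peaks in replicate 1 and 20 in replicate 2 were listed under the identifier of TBC1D5, and 11 in each replicate were overlapped by the other. Peaks classed as antisense and listed under the 10 identifiers numbered 35 in replicate 1 and 27 in replicate 2, among which TOX had 8 and 2 and ZEB1 4 and 7. No control library was analysed and the antisense share over all listed peaks was not counted. These counts thus have no background level beside them and are not read as enriched.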

How the results depend on the processing

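Over the alternatives run, 7 to 10 genes had a peak in both replicates and 6 to 9 a shared one. Of all alternative values 20 moved, mean percents by more than the replicate SD and counts by more than 1.5 times. A further 3 differences changed sign and 3 passed the test anew. The other 58 kept their direction and, for tested differences, their side of the threshold. Among them are counts at 5 tags, a minimum that drops peaks of replicate 1 only. It left a mean of 305 peaks on the genes, and for BCL11B 9.5 exon and 47 intron peaks, all below both replicates but within 1.5 times. Peaks of at least 10 tags left a mean of 31.5 peaks on the genes (29.8% in introns, 40.3% overlapped), and for BCL11B means of 3 exon and 1 intron peaks with 1 and 0 of replicate 1 overlapped. A p-value under 0.001 left 96.5 peaks (58% in introns), and for BCL11B 5.5 exon and 12 intron peaks with 0 and 1 overlapped. The intron share was 71.5% at 5 tags, 75% with any exon share counted as exon and 78.7% by position. With touching peaks, 33.7% of peaks and 6 exon and 11 intron peaks of BCL11B were overlapped, and at 5 tags 2 intron peaks were. The BCL11B exon against intron difference was 100 points in replicate 1 at 10 tags (adjusted p = 1, exact test), 34.2 and 65.5 points with touching peaks (adjusted p = 0.0284 and 9.79e-05, exact tests) and turned to -12.5 and -6.25 points at a p-value under 0.001 (adjusted p = 1, exact tests). Its difference in exon share between replicates was 11.2 points at a p-value under 0.001 (p = 0.708), 21.7 at 5 tags (p = 0.0158) and turned to -33.3 at 10 tags (p = 0.464, Fisher's exact tests). Stricter minimums leave fewer peaks and touching widens the overlap by construction; no other cause was tested. Leaving out either replicate gave 362 to 447 peaks, 77.4% to 78.5% in introns, 20.8% to 25.4% overlapped, and 10 to 11 exon and 54 to 76 intron peaks of BCL11B. No paired analysis was possible because a single group had peak lists. Unknown depth limits statements on low peaks, most of which were found in 1 replicate.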
